A study of Mus musculus with 26 samples.

Results

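Snrpb, Aar2, Coil and Rbm5 are genes of pre-mRNA splicing whose transcripts were followed here in individual mouse oocytes. The genes were followed through 4 of the 38540 transcripts that were counted. Each gene has a single assembled transcript that carries its name (TCONS_00061970 for Snrpb, TCONS_00058500 for Aar2, TCONS_00016470 for Coil and TCONS_00107273 for Rbm5). Only 511 transcripts carry a gene symbol, so other transcripts of these genes could be among those without a name. Levels given for a gene are those of its named transcript and not of its whole output. These genes were picked by name from the transcripts that the study had found to differ between the oocyte stages. The difference between stages therefore chose them and is described here without a test. All 4 transcripts passed the filter on low counts that left 16657 transcripts for testing.

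Fully grown germinal vesicle (GV) oocytes came from 2 wildtype 12-week-old C57Bl6/Babr mice, called C and D, and all were stained with Hoechst at 5 µM before freezing. Oocytes without a ring of condensed chromatin around the nucleolus were NSN (non-surrounded nucleolus, 5 from mouse C and 4 from mouse D), those with a complete ring were SN (surrounded nucleolus, 9 from mouse C and 7 from mouse D), and 1 oocyte of mouse D with a partial ring was intermediate. Polyadenylated RNA of each oocyte was separated from its DNA and sequenced, which yielded between 1358383 and 3647827 counts per oocyte. Counts are reads, because the protocol carries no molecular identifiers, and levels are given as CPM, counts per 1000000 counts of the oocyte's total, a share of each library and not an amount of RNA per oocyte.

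In splicing, small nuclear RNAs work inside protein-RNA particles (snRNPs) that recognise the ends of introns and carry out the cutting and joining. The snRNPs are built from a ring of Sm proteins, mature partly in nuclear Cajal bodies, and are recycled between rounds of splicing. Growing oocytes transcribe and splice actively and store much of the product, whereas transcription falls silent as chromatin closes around the nucleolus. Snrpb encodes SmB, a subunit of the Sm ring. Aar2 encodes a factor that binds Prp8 during assembly of the U5 snRNP. Coil encodes coilin, the scaffold protein of Cajal bodies, and Rbm5 encodes an RNA-binding protein that regulates the choice of splice sites.

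In the GENCODE M21 annotation of GRCm38, Snrpb lies at chr2:130171414-130179403 on the minus strand and Aar2 at chr2:156547584-156568972 on the plus strand. Coil lies at chr11:88970252-88991613 on the plus strand and Rbm5 at chr9:107740371-107770996 on the minus strand. All are protein-coding genes. Coil shares 197 exonic bases, or 5.6% of its exonic length, with the transcribed pseudogene 2210409E12Rik on the same strand, and Rbm5 overlaps the antisense gene Gm37850 without sharing exonic bases. Because the use of strand in the counting is not given in the sources used here, reads of such neighbours could not be told apart from those of the genes themselves.

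The upstream sequences of the genes whose transcripts fell side by side are shown because they allow a look at what the annotated promoters have in common. RefSeq windows of 250 bases before the start site were matched for 3 of the 4 genes (build GRCm38.p6), and Snrpb had no entry. These windows were not compared with the starts of the counted transcripts, so they need not be the promoters used in oocytes. The Coil window lies inside the gene as annotated in GENCODE. Capitals mark the motifs that were found, and the Coil sequence stops after 179 bases, where an annotated exon begins.
Aar2 (chr2:156547326-156547575, plus strand): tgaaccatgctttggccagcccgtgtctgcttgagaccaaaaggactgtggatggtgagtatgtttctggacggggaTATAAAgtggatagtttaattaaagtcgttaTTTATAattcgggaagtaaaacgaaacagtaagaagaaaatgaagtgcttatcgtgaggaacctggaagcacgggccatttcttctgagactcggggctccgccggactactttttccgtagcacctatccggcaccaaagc
Coil (chr11:88973685-88973863, plus strand): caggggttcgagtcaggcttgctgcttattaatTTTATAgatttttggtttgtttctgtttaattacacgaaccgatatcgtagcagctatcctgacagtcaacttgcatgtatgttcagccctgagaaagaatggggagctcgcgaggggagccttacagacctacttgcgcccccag
Rbm5 (chr9:107771003-107771252, minus strand): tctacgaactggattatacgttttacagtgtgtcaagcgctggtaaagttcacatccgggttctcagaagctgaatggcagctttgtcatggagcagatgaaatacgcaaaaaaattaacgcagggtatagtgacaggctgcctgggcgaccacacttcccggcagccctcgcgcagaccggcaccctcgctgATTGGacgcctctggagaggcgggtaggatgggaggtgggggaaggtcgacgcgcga

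The windows had 46.4% G and C bases in Aar2, 54.8% in Coil and 55.6% in Rbm5, against a median of 52.4% over 32851 mouse promoters. They held 12, 16 and 18 CpG dinucleotides, against a median of 6. On either strand, 7 short motifs were searched: the TATA box (TATAAA), the CCAAT box (CCAAT), the GC box (GGGCGG), and core letters bound by ETS factors (CGGAAG), YY1 (AAGATGG), NRF1 (TGCGCA) and homeodomain factors such as NOBOX (TAATTG). No motif was found in all 3 windows. The TATA letters were present on either strand in Aar2, starting 173 and 142 bases before the start, and in Coil, starting 217 bases before it, and in 12.4% of all promoters. The Rbm5 window held the reverse complement of CCAAT, starting 57 bases before the start, which 33.8% of all promoters hold in either orientation. In Coil, GGGCGG started 47 bases before the start, in the stretch not printed, and 32.7% of all promoters hold it. The other 4 motifs were in none of the 3 windows. The share of all promoters that hold them was 13.6% for the ETS letters, 4.49% for YY1, 6.43% for NRF1 and 7.17% for the homeodomain letters.

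The identity of the cells was checked with the markers that had a named transcript. All 5 such oocyte markers of 15 were abundant in every oocyte. Zp3, which encodes a zona pellucida protein, ranged from 1715 to 5052 CPM, and Nobox, an oocyte transcription factor gene, from 317 to 767 CPM. Of 13 granulosa cell markers, only Amh had a named transcript. It had counts in 7 of 9 NSN oocytes (0 to 31, mean 2.44 CPM), in 4 of 16 SN oocytes (0 to 10, mean 0.365 CPM) and 0 in the intermediate oocyte. In the annotation, Amh begins 318 bases after the end of Sf3a2 on the same strand. The part of other cells or of the neighbouring gene in these counts was not tested. The SN oocytes C-9 and D-28 stood apart from the others of their stage in the transcripts that fall, and results that rest on them are given with and without them.

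Each of the 4 transcripts was lower in SN than in NSN oocytes, with log2 fold changes from -1.88 to -1.20. In edgeR's quasi-likelihood fit over all transcripts, 8.07% of those tested were called lower in SN (1344 of 16657) and 5.41% higher (901). All 4 genes are among the former by their selection, so nothing is read from that count. With scaling by library size only, 1574 were called lower and 583 higher. The median log2 fold change over all tested transcripts was 0.01 with TMM scaling and -0.04 with library sizes, so the scaling moved the falls described here little.

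Snrpb, the gene of the SmB subunit, was measured at 18.9 CPM in the lowest of the 9 NSN oocytes, at 30.1 in the median and at 46.1 in the highest. The 16 SN oocytes ranged from 2.01 through a median of 9.0 to 28.8 CPM. Of these, 15 were below every NSN oocyte, and the remaining oocyte, C-9, lay inside the NSN range, while the next highest, C-18, was at 14.4 CPM. Mean levels were 30.1 ± 9.14 CPM in NSN (SD, n = 9) and 9.91 ± 6.02 CPM in SN oocytes (SD, n = 16). The fitted log2 fold change was -1.53 with an SE of 0.236.

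Aar2, the gene of the U5 assembly factor, had 5.93, 11.6 and 15.8 CPM in the lowest, median and highest NSN oocyte. In SN oocytes the corresponding values were 0, 2.19 and 8.0 CPM. A total of 13 of 16 SN oocytes were below every NSN oocyte, and the 3 that overlapped (D-28, D-10 and D-27) all came from mouse D. Its mean went from 10.9 ± 3.31 CPM (SD, n = 9) to 2.92 ± 2.32 (SD, n = 16). With a log2 fold change of -1.88 and an SE of 0.331, Aar2 had the largest fall of the 4 and the largest error over both mice. Within mouse D, its fall of -1.36 was close to the -1.39 of Coil and smaller than those of Snrpb and Rbm5. In 7 SN oocytes, Aar2 had at most 3 counts. In the SN oocyte D-13 it had 0 of 2147976 counts, which allows a level of up to 1.40 CPM, and this was the only oocyte in which any of the 4 transcripts had no count.

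Coil, the gene of the Cajal body scaffold, separated the stages completely. NSN oocytes had at least 12.0 CPM (median 18.2, highest 22.2) and SN oocytes at most 10.7 CPM (median 6.82, lowest 3.68). NSN oocytes averaged 17.3 ± 3.88 CPM (SD, n = 9), and those of the SN stage 7.19 ± 1.86 (SD, n = 16). The log2 fold change of -1.20 (SE 0.161) was the smallest of the 4 over both mice and within mouse C.

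Rbm5, the gene of the splice site regulator, also showed no overlap, with 15.9 to 33.9 CPM in NSN oocytes (median 29.7) and 5.33 to 13.8 CPM in SN oocytes (median 7.75). The means were 26.7 ± 6.66 (SD, n = 9) and 8.28 ± 2.53 CPM (SD, n = 16), and the log2 fold change was -1.64 (SE 0.168). Complete separation with SN below NSN, as for Coil and Rbm5, was seen for 66 of the 16657 transcripts, or 0.396%. Since these genes were selected on the same oocytes, the count describes them and supports nothing further.

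**Figure D1:**
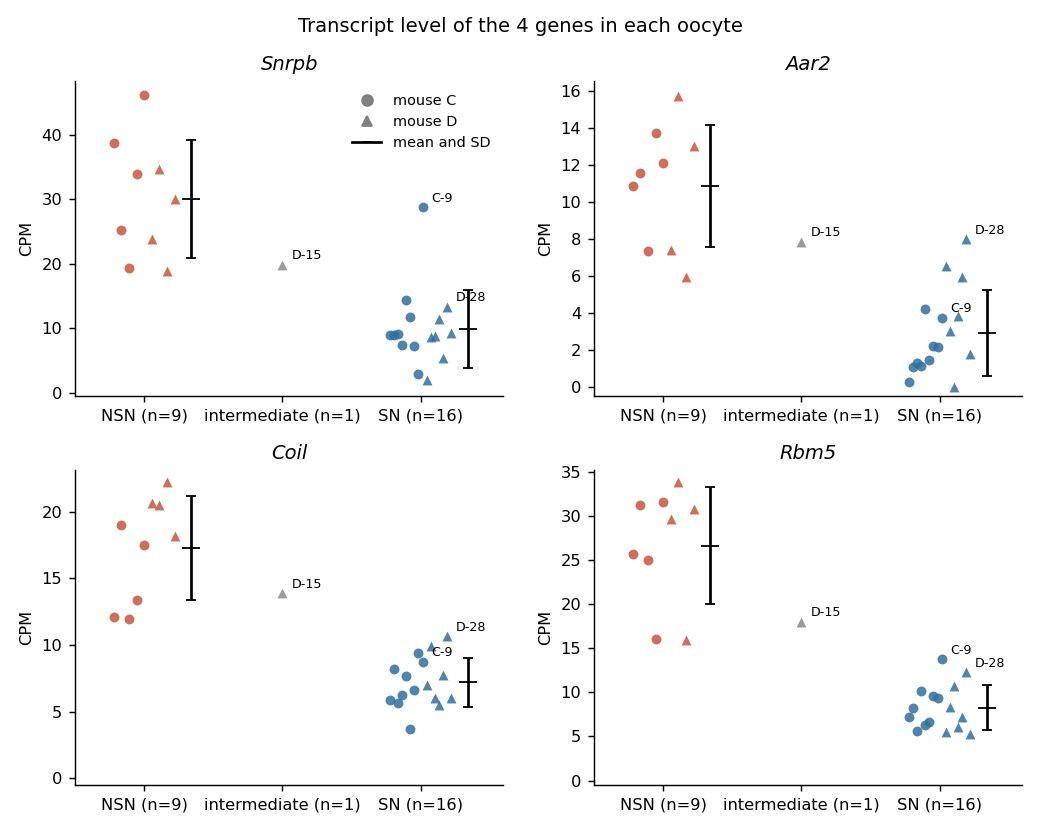
CPM (vertical axis, linear) of each of the 4 transcripts in every oocyte, grouped by stage, with circles for mouse C and triangles for mouse D and black bars for the mean ± SD of NSN and SN. The SN oocyte D-28 is the highest of its stage for Aar2 and Coil, C-9 is the highest for Rbm5 and for Snrpb, where it reaches 28.8 CPM, and the intermediate oocyte D-15 lies between the stage means in every panel.

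The scatter between oocytes differed between the genes and was compared with counting error. For an index of dispersion, squared deviations of the counts from their expectation given the total counts were divided by that expectation. Their sum was divided by n - 1. The index is near 1 when counting error is the only source of scatter. It was 7.45 in NSN and 7.82 in SN oocytes for Snrpb, where the SN value rested on C-9 and was 2.55 without that oocyte. Aar2 had values of 2.54 and 4.20 (4.55 in SN without C-9), and Rbm5 of 4.63 and 1.72. For Coil the index was 2.25 in NSN and 0.980 in SN oocytes. Its scatter in SN oocytes thus showed no excess over counting error, though with a median of 13.5 counts an excess could be missed. The coefficient of variation of Snrpb was 30.4% in NSN and 60.8% in SN oocytes (39.6% without C-9), and that of Aar2 was 30.5% and 79.3%, against 42.3% from counting error alone for Aar2 in SN.

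The labels name no batch other than the mouse, which the selection did not use. With stage in the model, none of the 4 transcripts differed between the mice by edgeR's quasi-likelihood test with Benjamini-Hochberg adjustment over all transcripts. Of all tested transcripts, 0.036% (6 of 16657) did, a count that was 151 with DESeq2, 53 without the filter, 0 with library sizes only and 0 to 23 when single oocytes were left out. The log2 difference of mouse D over mouse C was -0.38 (SE 0.237, adjusted p = 0.599) for Snrpb, 0.47 (SE 0.338, adjusted p = 0.669) for Aar2, 0.25 (SE 0.159, adjusted p = 0.608) for Coil and -0.04 (SE 0.173, adjusted p = 0.968) for Rbm5. With 2 animals, the test compares these mice over their oocytes. For Coil, mean levels in NSN oocytes were 14.8 ± 3.24 CPM (SD, n = 5) in mouse C and 20.4 ± 1.65 (SD, n = 4) in mouse D, and in SN oocytes 6.90 ± 1.79 (SD, n = 9) and 7.56 ± 2.02 (SD, n = 7).

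All 4 transcripts were lower in SN within each mouse. In mouse C the log2 fold changes were -1.50 (SE 0.306) for Snrpb, -2.48 (SE 0.372) for Aar2, -1.06 (SE 0.224) for Coil and -1.58 (SE 0.217) for Rbm5. In mouse D they were -1.63 (SE 0.313) for Snrpb, -1.36 (SE 0.495) for Aar2, -1.39 (SE 0.249) for Coil and -1.76 (SE 0.276) for Rbm5. The gap between the mice was widest for Aar2, whose SN oocytes averaged 1.96 ± 1.29 CPM (SD, n = 9) in mouse C and 4.16 ± 2.83 (SD, n = 7) in mouse D, while its NSN means were 11.1 ± 2.37 (SD, n = 5) and 10.5 ± 4.63 CPM (SD, n = 4). The difference of the stage effects was 1.11 on the log2 scale for Aar2 (SE 0.654, adjusted p = 0.846 by edgeR's interaction test) and did not exceed the spread between oocytes. For Snrpb it was -0.14 (SE 0.477, adjusted p = 0.982), for Coil -0.34 (SE 0.321, adjusted p = 0.918) and for Rbm5 -0.19 (SE 0.351, adjusted p = 0.975). The interaction test called 0.0% of all transcripts with edgeR (0 of 16657, with 996 at an unadjusted p under 0.05) and 0 with DESeq2.

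**Figure D2:**
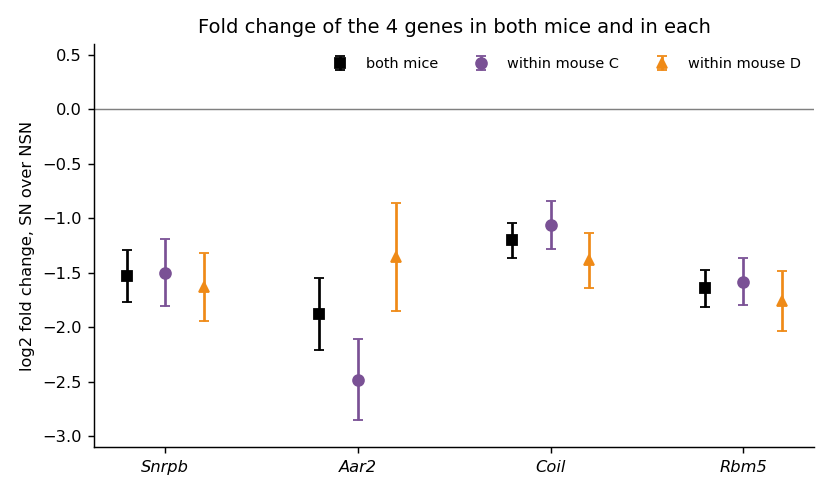
Log2 fold change of SN over NSN (vertical axis) for each transcript in both mice (squares), within mouse C (circles) and within mouse D (triangles), with bars for the standard error. Every value lies below 0, and Aar2 has the widest gap between the mice, -2.48 in C against -1.36 in D.

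The intermediate oocyte, D-15, took no part in the selection by stage. Its Snrpb level was 19.9 CPM (43 counts, 95% Poisson interval 14.4 to 26.8), above 15 of 16 SN oocytes and below 7 of 9 NSN oocytes. Its Aar2 level was 7.86 CPM (17 counts, interval 4.58 to 12.6), above 15 SN oocytes and below 6 NSN oocytes. For Coil it had 13.9 CPM (30 counts, interval 9.36 to 19.8) and for Rbm5 18.03 CPM (39 counts, interval 12.8 to 24.6), and both were above all 16 SN oocytes. For each of the 4 transcripts, D-15 thus lay in the lower part of the NSN range. The intervals cover counting error only, and a single oocyte allows no test of the stage.

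The position of D-15 was also expressed as the percentage of the distance from the NSN mean to the SN mean on the log2(CPM + 0.5) scale. It was 37.7% for Snrpb, 25.6% for Aar2, 25.4% for Coil and 33.9% for Rbm5. Over all 630 transcripts called lower in SN by more than 1 on the log2 scale, these 4 included, the median position was 83.1% (interquartile range 41.4% to 129%). Of the other 626, 20.6% lay as near to the NSN mean as Snrpb or nearer, and 13.3% did so for Aar2. Among the 197 of them with at least 10 CPM in NSN oocytes, the median was 71.2%, and 11.7% lay at or below the position of Coil. By their measured values, the 4 genes were nearer to the NSN level in D-15 than most of the other falling transcripts, in this 1 oocyte. Counting error was not carried into these positions, so whether the ranking exceeds it was not tested.

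Whether the genes fell together oocyte by oocyte was examined with correlations of log2 CPM, which are given as a description because the points share libraries and stages. Over all 26 oocytes, the 6 pairs had Pearson correlations from 0.60 (Snrpb with Aar2) to 0.86 (Coil with Rbm5), which include the difference between the stages that chose the genes. Within a stage the pairs were much less alike. The mean of the 6 correlations was 0.253 in NSN oocytes (n = 9), 0.185 in SN oocytes (n = 16) and 0.177 for deviations from the stage means (n = 25). Counting error lowers such correlations. In SN oocytes it alone gives Aar2 a coefficient of variation of 42.3%, and the index of dispersion of Coil was 0.980. Low values within a stage therefore cannot show that the genes vary apart.

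In NSN oocytes the closest pair was Snrpb with Aar2 (r = 0.79, rho = 0.58), and 0.841% of all tested transcripts were at least as close to Snrpb. Snrpb and Coil were at -0.17 in the same oocytes. In SN oocytes the closest pairs were Coil with Rbm5 (r = 0.49, rho = 0.51) and Aar2 with Coil (r = 0.45, rho = 0.43). At least as close to Coil as Rbm5 were 3.45% of all transcripts. Both of these pairs include Coil, whose measured scatter in SN oocytes showed no excess over counting error. The remaining 4 pairs in SN oocytes lay between -0.08 (Aar2 with Rbm5) and 0.35 (Snrpb with Rbm5). Snrpb with Rbm5 was the only pair above 0.3 in both stages, at 0.35 in each, with rho of 0.30 in NSN and 0.09 in SN oocytes. Correlations of each gene with the log2 total count of the library lay between -0.23 and 0.43 within the stages.

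A pair of SN oocytes, C-9 and D-28, stood above the others. Summed over the 4 transcripts, SN oocytes ranged from 21.1 to 32.6 CPM except for D-28 at 44.3 and C-9 at 55.1 CPM, while NSN oocytes ranged from 63.0 to 107 CPM and the intermediate oocyte was at 59.6 CPM. D-28 had the highest Aar2 and Coil of the 16 SN oocytes and the next to highest Rbm5, and it was 14th from the bottom for Snrpb. C-9 had the highest Snrpb and Rbm5, but was 13th for Coil and 11th for Aar2. Within the SN stage, C-9 also had the most Amh counts (10), whereas D-28 had 1. In NSN oocytes, C-8 had both the most Snrpb (46.1 CPM) and the most Amh (31 counts), and the part of Amh-bearing reads in these levels was not tested.

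Much of the shared variation in SN oocytes rested on that pair. Without C-9 and D-28, the mean of the 6 correlations in SN oocytes was -0.12 (n = 14) instead of 0.185, with values from -0.51 (Aar2 with Rbm5) to 0.29 (Aar2 with Coil, and Coil with Rbm5). Without C-9 alone it was 0.067 and without D-28 alone 0.075. The falls themselves were larger without the pair, with log2 fold changes of -1.80 for Snrpb, -2.13 for Aar2, -1.29 for Coil and -1.79 for Rbm5. All 14 remaining SN oocytes were then below every NSN oocyte for Snrpb, Coil and Rbm5, and 12 of 14 for Aar2. Of the 16657 tested transcripts, 116 then separated completely in the same direction, beside 66 (0.396%) with all SN oocytes. Leaving out these oocytes was decided after their values had been seen. They had the highest sums of the SN stage and lay above its mean for each gene. Leaving them out therefore enlarges the falls by construction, and tends to raise the separation and to lower the correlations. The changes seen without the pair are thus no independent evidence.

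**Figure D3:**
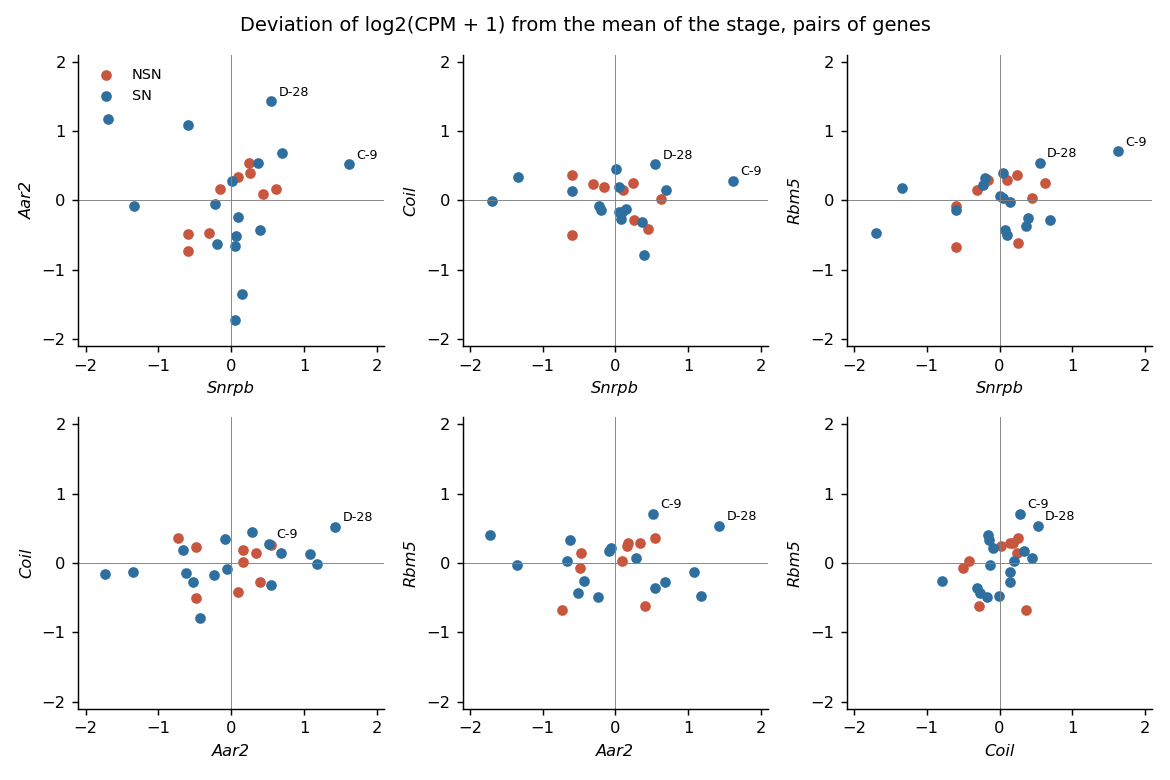
Deviation of log2(TMM-scaled CPM + 1) from the stage mean for each pair of the 4 genes, with 1 point per oocyte, NSN in red and SN in blue. Points scatter around the origin in most panels, and C-9 and D-28 lie in the upper right quadrant of every panel.

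The same oocytes stood out in the rest of the falling transcripts. The other 626 transcripts called lower in SN by more than 1 on the log2 scale summed to 1788 to 2766 CPM in 14 SN oocytes, to 3814 CPM in D-28 and to 4000 CPM in C-9, against 5171 to 9451 CPM in NSN oocytes. Over the 16 SN oocytes, the sum of the 4 genes and the sum of the 626 correlated with r = 0.79 (rho = 0.47) on the log2 scale, and without C-9 and D-28 with r = 0.10 (rho = 0.21, n = 14). In NSN oocytes the correlation was 0.57 (rho = 0.60, n = 9). The intermediate oocyte had 3336 CPM of the 626, less than C-9 and D-28, but more of the 4 genes than either. All these transcripts were selected on the stage, and abundant transcripts weigh more in such sums. C-9 and D-28 had the highest SN values of both sums, so leaving them out tends by itself to lower the correlation in SN oocytes.

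**Figure D4:**
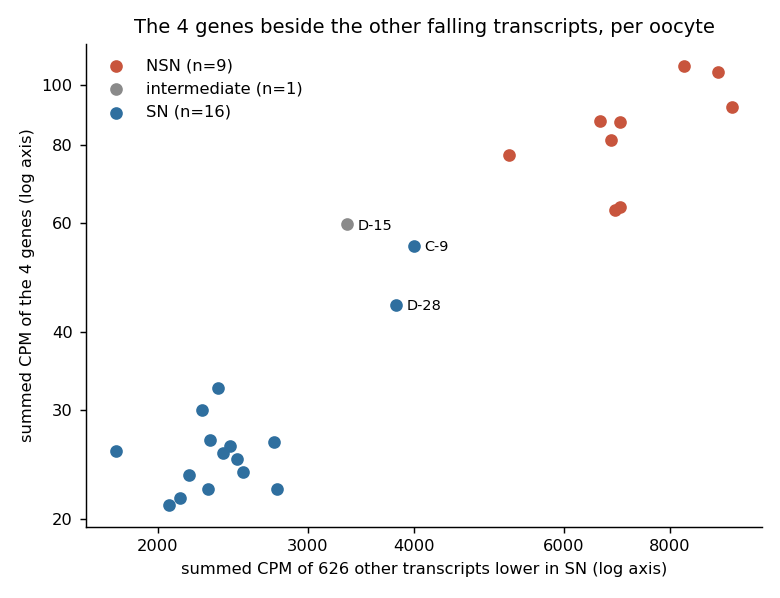
Summed CPM of the 4 genes (vertical, log axis) against summed CPM of the 626 other transcripts called lower in SN by more than 1 on the log2 scale (horizontal, log axis), with 1 point per oocyte. The SN oocytes C-9 (55.1 CPM) and D-28 (44.3 CPM) lie between the other SN oocytes and the NSN oocytes, near the intermediate oocyte D-15 (59.6 CPM).

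For each gene, the named transcripts with the most similar pattern were taken from the 301 tested transcripts with a gene symbol, 254 of which carry a name because the study listed them as differing between the stages. Over all 26 oocytes, Snrpb was closest to Ppp4r1 (r = 0.89), which encodes a regulatory subunit of a protein phosphatase, followed by Wdr4 and Astl (r = 0.84 each). Aar2 was closest to Uqcrc1 (r = 0.78), a respiratory chain gene, followed by Vav3 (0.77) and Zfp622 (0.76). Coil was closest to Zfp622 and Qrsl1 (r = 0.87 each) and to B3galnt1 (0.85), and Rbm5 to Eif1a and Zfp622 (r = 0.92 each) and to Gm16157 (0.90). Zfp622 was thus among the 3 closest for Aar2, Coil and Rbm5, and averaged 5.21 CPM in NSN and 0.322 CPM in SN oocytes.

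After removing the stage means (n = 25), Snrpb was again closest to Ppp4r1 (r = 0.69), and Astl, the gene of the egg protease ovastacin, was among its 3 closest (0.62). Coil was closest to B3galnt1 (0.61), Mrap (0.59) and Lrp12 (0.58). Rbm5 was closest to Zfp622 (0.63), Eif1a (0.62), the gene of a translation initiation factor, and BC003965 (0.61). The values of Aar2 were lower, with 0.52 for Depdc1a, 0.51 for 6530411M01Rik and 0.49 for 2700069I18Rik. No gene was among the 3 closest to more than 1 of the 4 genes on this scale.

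The rest of the splicing machinery could be followed in part only. Of 227 genes of a list of splicing and snRNP factors, 12 had a named transcript, the 4 genes included, and all 12 were tested. By edgeR's quasi-likelihood test with adjustment over all transcripts, 4 of the other 8 fell, 2 rose and 2 did not pass the threshold. Their median log2 fold change was -0.68, beside 0.01 over all transcripts. Of these 8 genes, 7 are named because the study listed them as differing in the same oocytes. Neither their direction nor their adjusted p-values, given below as a description, are independent evidence. Of all 254 tested transcripts named in that way, 145 fell and 35 rose.

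Snrpd3, the only list gene whose name did not come from those lists, encodes SmD3, the partner that SmB binds within the Sm ring. It had 62.3, 98.1 and 125 CPM in the lowest, median and highest NSN oocyte and 43.3, 80.5 and 136 CPM in SN oocytes. The stages overlapped almost fully, and the fold change was -0.10 on the log2 scale (SE 0.143, adjusted p = 0.722 by edgeR). The difference between the falls of Snrpb and Snrpd3 was not tested.

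Among genes of snRNP assembly and Cajal bodies, Prmt7, which encodes an arginine methyltransferase that acts on Sm proteins, fell from 133 ± 31.4 CPM (SD, n = 9) to 80.8 ± 17.2 (SD, n = 16), which is -0.67 on the log2 scale (SE 0.127, adjusted p = 0.000353 by edgeR). Wrap53, whose protein guides RNAs to Cajal bodies, did not pass the threshold (-1.57, SE 0.611, adjusted p = 0.0843 by edgeR). It had no count in 11 of 16 SN oocytes and at most 7 counts in NSN oocytes. Its highest SN level (2.40 CPM) was above its highest NSN level (2.35 CPM). Wrap53 passed in edgeR fits without D-12 (adjusted p = 0.017), without D-28 (0.0362) and without C-9 and D-28 together (0.0396).

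Snapc2 and Snapc1 encode subunits of SNAPc, the complex that starts transcription of snRNA genes. Snapc2 fell from 11.3 ± 5.97 CPM (SD, n = 9) to 3.68 ± 1.73 (SD, n = 16), which is -1.54 on the log2 scale (SE 0.279, adjusted p = 0.000209 by edgeR), and 15 of 16 SN oocytes were below every NSN oocyte. Snapc1 had at most 9 counts in any NSN or SN oocyte, and no count in 10 SN oocytes and 1 NSN oocyte. Its highest SN level (3.62 CPM) was above its highest NSN level (3.55 CPM). The log2 fold change of Snapc1 was -1.99 (SE 0.641, adjusted p = 0.0338 by edgeR). This call was lost without C-9 and D-28 (adjusted p = 0.0512 by edgeR) and without the filter on low counts (0.0525), DESeq2 gave no adjusted p, and in 9 of 25 fits without a single oocyte the transcript missed the filter. Lsm1, a subunit of the cytoplasmic LSm ring of mRNA decay, fell by 0.68 on the log2 scale (SE 0.148, adjusted p = 0.00174 by edgeR).

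The genes that rose, both named from the study's lists of differing transcripts, encode proteins deposited on spliced mRNA. Magoh, a core gene of the exon junction complex, rose from 109 ± 30.9 CPM (SD, n = 9) to 160 ± 35.9 (SD, n = 16), which is 0.59 on the log2 scale (SE 0.136, adjusted p = 0.003 by edgeR). Sap18, a gene of the ASAP complex that joins it, rose by 0.46 on the log2 scale (SE 0.124, adjusted p = 0.0105 by edgeR). Within mouse C or mouse D alone, neither rise passed the adjusted threshold of edgeR's test, while the unadjusted p of both was under 0.05 in each mouse.

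**Figure D5:**
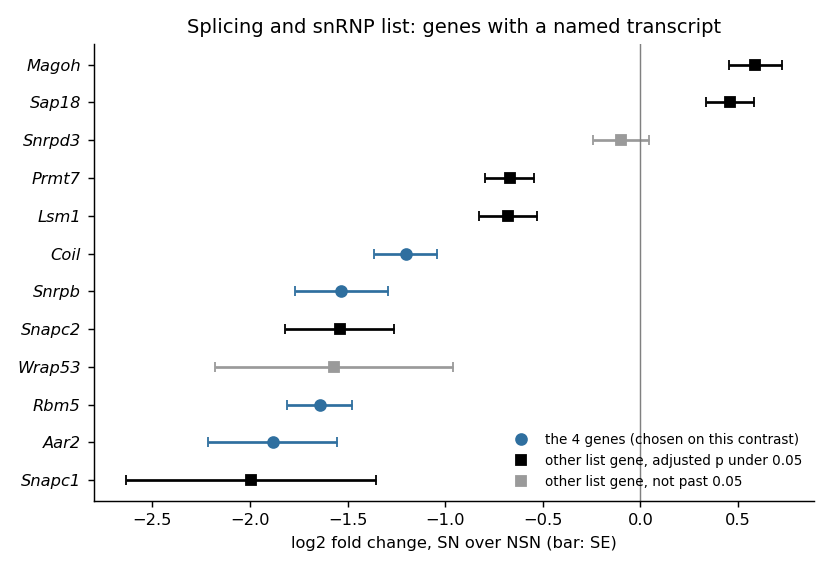
Log2 fold change of SN over NSN (horizontal axis, bars for the standard error) of the 12 genes of the splicing and snRNP list that had a named transcript. The 4 genes (blue circles) lie between -1.88 and -1.20, Snrpd3 lies at -0.10, and Magoh and Sap18 lie above 0.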

How the data were processed

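Single-end reads were trimmed with Trim Galore and aligned with HISAT2 2.1.0 to GRCm38, and the authors used SeqMonk to count reads over transcripts assembled earlier from oocytes. These counts were deposited without normalization. A second deposited table holds the authors' DESeq2 comparison and was not used. The authors left out libraries under their read minimum and outliers in clustering. Handling of reads with several matches is not given in the sources used here.

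Stage and mouse came from the labels, and 0 sample columns were left unused. A transcript needed 3 or more counts in 9 or more oocytes to be tested. Tests were two-sided quasi-likelihood tests of edgeR 4.0.16 in R 4.3.3 after TMM scaling, with a Benjamini-Hochberg threshold of 0.05. The stage fit had stage as its only term, and the mouse and interaction tests added the mouse. Standard errors came from the quasi-F statistic. Correlations used log2 CPM with a prior count of 2. Python 3.11.15, numpy 2.4.6, scipy 1.17.1 and pandas 2.3.3 were used. The scripts were tested on simulated data. DESeq2 1.42.0, other scalings and filters, thinning to 1358383 counts, the mouse as a term and leaving out each oocyte were alternatives. Leaving out C-9 and D-28 together, or C-9 for the spread between oocytes, was added after seeing the data.

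Names came from the study's lists for 366 transcripts and from GENCODE for 145. The members and the gene lists were chosen with earlier results of these data known. The text names the 4 genes, every list gene with a tested transcript, the 3 named transcripts closest to each gene and the markers, except for 1 item that is not reported here. Other features were named after their values were seen. Oocytes of a mouse share the animal, so p-values measure the spread between oocytes. Among 156 pairs of oocytes of the same stage, 0 had identical counts, and chi-square per degree of freedom was at least 2.78. Intervals and limits (a count of 0 allows 3 counts) cover counting error only, and the limit was 2.21 CPM in the shallowest SN library.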

Additional observations from a re-analysis of the deposited data

Results flagged for a closer look

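Snrpb in the SN oocyte C-9 was at 28.78 CPM, and the next highest of the 9 SN oocytes of mouse C was at 14.4 CPM. The gap was 0.557 of the range of these oocytes, above Dixon's critical value of 0.493. Among 12 groups of 4 to 10 oocytes (each gene in NSN, and in SN of each mouse), this was the only flag, and chance flags about 1 in 20. The values of C-9 for the other 3 genes were not flagged, at 3.75 CPM for Aar2, 8.76 CPM for Coil and 13.8 CPM for Rbm5.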

How the results depend on the processing

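The falls of the 4 genes from NSN to SN kept their direction and moved by less than 1 SD between oocytes under every alternative run (132 values), with the mouse as a term included (log2 fold changes with this block: -1.54 for Snrpb, -1.94 for Aar2, -1.19 for Coil and -1.64 for Rbm5). Leaving out each oocyte in turn gave -1.73 to -1.44 for Snrpb, -2.06 to -1.81 for Aar2, -1.27 to -1.15 for Coil and -1.74 to -1.60 for Rbm5. No alternative called a difference between mice or an interaction for any of the 4. DESeq2 gave no adjusted p for the mouse difference of any of them, so it could not have called one. Leaving out single oocytes turned the sign of 2 values near 0, the mouse difference of Rbm5 (-0.103 to 0.0331) and the interaction of Snrpb (-0.29 to 0.17), and without C-9 and D-28 the latter was 0.0504. The mean correlation within SN oocytes was 0.067 to 0.23 without single oocytes and -0.12 without C-9 and D-28. Without single oocytes, that within NSN oocytes was 0.11 to 0.36. For deviations from stage means it was 0.094 to 0.22, and -0.027 without C-9 and D-28. The processing moved these means further. Thinning gave 0.106 in SN and 0.426 in NSN oocytes, and CPM on a linear scale gave 0.308 in SN and 0.219 in NSN oocytes. The index of dispersion of Snrpb in SN oocytes was 2.55 without C-9 and 2.49 without C-9 and D-28, and that of Rbm5 was 0.915 without both. Thinned to the smallest library, 1.94 SN oocytes would be expected to have no Aar2 count. After such thinning, the difference of the stage effects between the mice was 0.639 for Aar2 instead of 1.11. On the splicing list 5 genes fell and 0 rose within mouse C, and 0 rose within mouse D, with fewer oocytes in each fit. Depth limits Aar2 most, with a median of 4.5 counts in SN oocytes. No replicate numbers were shared between stages, so no pairing beyond the mouse was possible.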
